A study of Mus musculus with 6 samples.

Results

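The genes described here are the immunoglobulin constant genes and J chain, 10 genes chosen by symbol out of the 46983 in the count tables: Ighm, Ighd, Ighg1, Ighg2b, Ighg2c, Ighg3, Igha, Igkc, Iglc2 and Jchain. Gene expression was measured by RNA-Seq of ribosomal RNA-depleted total RNA in naïve CD4 T cells from mouse lymph nodes, with 3 control and 3 Rnmt cKO libraries. All animals were male and homozygous for a floxed Rnmt allele, written Rnmt fl/fl, on a C57B6/J background. Controls had no Cre, and Rnmt cKO animals also carried the CD4cre transgene, which uses Cd4 control elements, acts from the thymocyte stage at which both CD4 and CD8 are expressed and removes 1 exon of Rnmt, the gene of the methyltransferase that completes the RNA cap. The presence of Cre and the loss of Rnmt therefore cannot be told apart, and the ages of the animals are not given in the sources used here. Cells were sorted as TCRb+, CD4+, CD62L+, CD44- and DAPI-, a gate with no B cell marker among the labels given for it.

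Immunoglobulins are made by B cells and, in large amounts, by the plasma cells that arise from them. A heavy chain gene is assembled from V, D and J segments in front of Ighm and Ighd, the constant genes of IgM and IgD, and class switching can then place the same V region in front of an IgG, IgE or IgA constant gene. Light chains use Igkc or 1 of the lambda constant genes, and the J chain joins IgM and IgA into polymers. An unrearranged constant gene can also be transcribed on its own, from a promoter upstream of it, into a germline transcript with no V segment.

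In Rnmt cKO cells the IgG constant genes, Igha, Igkc and Jchain were higher than in controls, Ighm was lower, and Ighd and Iglc2 overlapped between the groups. With all 6 libraries, 7 of the 10 members had every Rnmt cKO value above every control value, as 16.6% of the 12336 tested genes did, and 1 had every value below, as 14.9% did. In the edgeR exact test with an adjusted p under 0.05, 7 members were called higher, against a background of 8.0% of tested genes, and 1 lower, against 6.84%. Without scaling beyond library size the tested genes split into 535 lower and 1938 higher, in place of 844 and 987, and the calls among the members were still 7 and 1. The members were chosen with these differences known, so the counts and the fold changes given below are a description and support nothing. All 10 members passed the filter of more than 1 CPM, sense counts relative to the total of each library, in at least 3 libraries. However, 5 of them exceeded it in fewer than 3 controls (Ighg1, Ighg2b, Ighg2c, Ighg3 and Jchain) and so passed only with the help of the Rnmt cKO libraries, in which they are high.

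The members lie at 4 places in the genome (mm10, GENCODE vM21). The heavy chain constant genes lie on the minus strand of chromosome 12 in the order of transcription: Ighm (ENSMUSG00000076617.9, 113418558 to 113422730), Ighd (ENSMUSG00000104213.5, 113406604 to 113416324), Ighg3 (ENSMUSG00000076615.3, 113356224 to 113361232), Ighg1 (ENSMUSG00000076614.7, 113325240 to 113330523), Ighg2b (ENSMUSG00000076613.3, 113302965 to 113307933), Ighg2c (ENSMUSG00000076612.7, 113285325 to 113288932) and Igha (ENSMUSG00000095079.6, 113254830 to 113260236). Igkc lies on the plus strand of chromosome 6 (ENSMUSG00000076609.2, 70726435 to 70726966), within the annotated lincRNA Gm30211 on the same strand, which held 44 counts over all libraries. Iglc2 lies on the minus strand of chromosome 16 (ENSMUSG00000076937.3, 19198396 to 19200351) and Jchain on the minus strand of chromosome 5 (ENSMUSG00000067149.6, 88519809 to 88527891).

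The IgG genes are related in sequence, which bears on whether reads can be assigned to each. The first 60 bases of the lowest-numbered transcript of each (GENCODE vM21, transcript strand) are shown to mark how soon they part, with capitals where a base differs from Ighg1, at 13, 14 and 18 positions.
Ighg1: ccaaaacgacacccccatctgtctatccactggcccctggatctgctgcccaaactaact
Ighg2b: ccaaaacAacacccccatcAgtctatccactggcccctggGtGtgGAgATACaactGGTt
Ighg2c: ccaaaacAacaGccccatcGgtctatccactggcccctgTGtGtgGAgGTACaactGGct
Ighg3: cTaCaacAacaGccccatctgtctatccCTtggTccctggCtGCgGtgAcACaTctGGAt
Over the full transcripts the 4 IgG genes were between 75.8% and 84.4% identical, with Ighg2b and Ighg2c the closest pair. Stretches of 75 bases shared with any other annotated gene made up at most 0.931% of the stretches in each member. Reads on the antisense strand were at most 0.870% of the reads of each member.

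The libraries held 8873413 to 11277764 sense counts, and the share of uniquely mapped reads outside genes ranged from 31.8% to 47.9%. Rnmt was at 51.5 to 58.7 CPM in controls and 26.6 to 42.0 CPM in Rnmt cKO libraries. The 10 markers of naïve CD4 T cells were all tested and summed to 5424 to 6053 CPM in controls and 6096 to 7000 CPM in Rnmt cKO. Among the members, Rnmt cKO library 2 stood apart. It was the highest of all 6 libraries for 7 of the 10 genes, and Rnmt cKO library 1 was the lowest of the Rnmt cKO libraries for all 10, so values without library 2 are given beside the results.

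**Figure D1:**
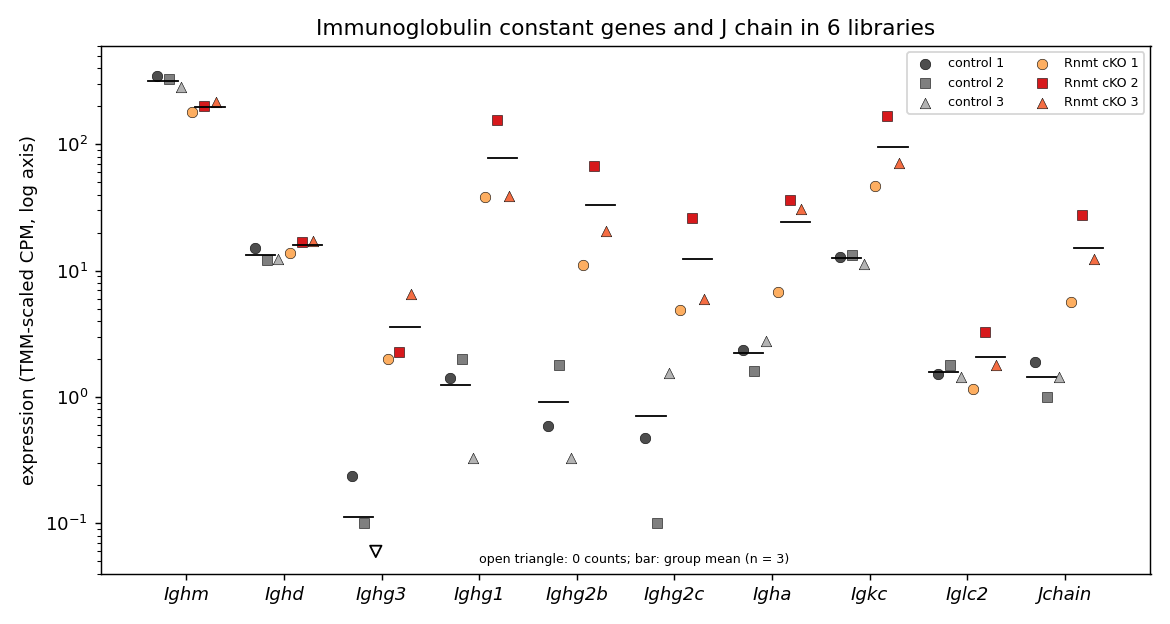
Expression of each member in each library, in TMM-scaled CPM on a log axis, with controls in grey, Rnmt cKO libraries in orange and red, group means as bars (n = 3) and a count of 0 as an open triangle. Ighm is lower in all Rnmt cKO libraries, Ighd and Iglc2 overlap, and for the other 7 genes the Rnmt cKO libraries lie above the controls, in most of them with 1 library apart from the other two.

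Ighm, the constant gene of IgM, was the most abundant member in controls. Its normalised expression was 346.5, 326.7 and 283.6 CPM in controls and 180.7, 200.3 and 214.6 CPM in Rnmt cKO. All Rnmt cKO values lay below all controls, with means of 318.9 ± 32.1 and 198.5 ± 17.0 CPM (SD, n = 3) and a log2 fold change of -0.68 ± 0.11 (SE). It was -0.69 without Rnmt cKO library 2, and the libraries of a group differed by at most 1.22-fold. Ighd, which is spliced from the same primary transcript as Ighm in mature B cells, was at 15.1, 12.2 and 12.4 CPM in controls and 13.7, 17.0 and 17.3 CPM in Rnmt cKO. The groups overlapped, with a log2 fold change of 0.28 ± 0.14 (SE). Ighd thus took a larger share of the Ighm and Ighd counts in every Rnmt cKO library, at 7.07%, 7.81% and 7.46%, than in controls, at 4.16%, 3.59% and 4.18%. The exact binomial 95% intervals of these shares, which cover counting error only, reached up to 5.01% in controls and down to 5.94% in Rnmt cKO.

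Ighg1, the constant gene of IgG1, was the most abundant of the switched genes in Rnmt cKO by mean. It held 12, 20 and 3 counts in controls and 364, 1853 and 437 counts in Rnmt cKO, that is 1.41, 2.00 and 0.331 CPM against 38.5, 156.3 and 39.2 CPM. Rnmt cKO library 2 was about 4.06-fold above the lowest Rnmt cKO library, yet all of them lay far above the controls. The means differed 62.6-fold, or 31.2-fold without that library, and the log2 fold change was 5.95 ± 0.91 (SE), or 4.92 without it.

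Ighg2b and Ighg2c, the constant genes of IgG2b and IgG2c, had the same order of libraries. Ighg2b was at 0.588, 1.80 and 0.331 CPM in controls and 11.0, 67.3 and 20.7 CPM in Rnmt cKO. Its log2 fold change was 5.15 ± 0.95 (SE), or 4.07 without Rnmt cKO library 2. Ighg2c was at 0.470, 0.0998 and 1.55 CPM in controls and 4.86, 26.3 and 5.92 CPM in Rnmt cKO. Its log2 fold change was 4.12 ± 1.05 (SE), or 2.93 without that library. Control 3, with 14 counts, was the highest control for Ighg2c and, with 3 counts each, the lowest for Ighg1 and Ighg2b, so that the controls did not keep 1 order across the IgG genes.

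Ighg3, the constant gene of IgG3, was the least abundant of the heavy chain genes, with 2, 1 and 0 counts in controls and 19, 27 and 73 counts in Rnmt cKO. Because no control exceeded 3 counts, the fold is given against that number per library, and Ighg3 was at least 11.0-fold higher in Rnmt cKO, or at least 13.1-fold without library 2. Ighg3 was the only IgG gene with its highest value in Rnmt cKO library 3, at 6.54 CPM against 2.01 and 2.28 CPM in libraries 1 and 2.

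Igha, the constant gene of IgA, was at 2.35, 1.60 and 2.76 CPM in controls and 6.76, 36.0 and 30.5 CPM in Rnmt cKO. Here Rnmt cKO libraries 2 and 3 were both high, library 1 was lower, and the groups did not overlap. The log2 fold change was 3.45 ± 0.79 (SE), and 3.06 without Rnmt cKO library 2. Ighe, the constant gene of IgE and not a member, held 0, 2 and 0 counts in controls and 3, 44 and 0 counts in Rnmt cKO, so that its counts came almost entirely from library 2.

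Igkc, the constant gene of kappa light chains, was the member with the most even controls, at 12.8, 13.4 and 11.3 CPM. In Rnmt cKO it reached 47.0, 166.7 and 71.4 CPM. No Rnmt cKO value overlapped the controls, and the means of 12.5 ± 1.09 and 95.1 ± 63.2 CPM (SD, n = 3) gave a 7.61-fold difference, or 4.74-fold without library 2. The log2 fold change was 2.93 ± 0.54 (SE), or 2.24 without that library. Iglc2, a lambda constant gene, did not separate the groups. It was at 1.53, 1.80 and 1.44 CPM in controls and 1.16, 3.29 and 1.79 CPM in Rnmt cKO, with a log2 fold change of 0.41 ± 0.40 (SE) that became -0.10 without Rnmt cKO library 2. Unlike Iglc2, the lambda constant genes Iglc1 and Iglc3, which are not members, had all Rnmt cKO values above all controls. Iglc1 held 8, 18 and 6 counts in controls and 22, 39 and 33 in Rnmt cKO, with a log2 fold change of 1.31 ± 0.38 (SE) and an edgeR adjusted p of 0.00660, though only 1 of its controls exceeded the filter. Iglc3 held 19, 17 and 13 counts in controls and 23, 56 and 35 in Rnmt cKO, with a log2 fold change of 0.95 ± 0.31 (SE) and an edgeR adjusted p of 0.0578.

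Jchain, the gene of the J chain, was at 1.88, 0.998 and 1.44 CPM in controls and 5.60, 27.4 and 12.4 CPM in Rnmt cKO. The order of the Rnmt cKO libraries was that of Igkc, the groups did not overlap, and the log2 fold change was 3.40 ± 0.69 (SE), or 2.65 without library 2.

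**Figure D2:**
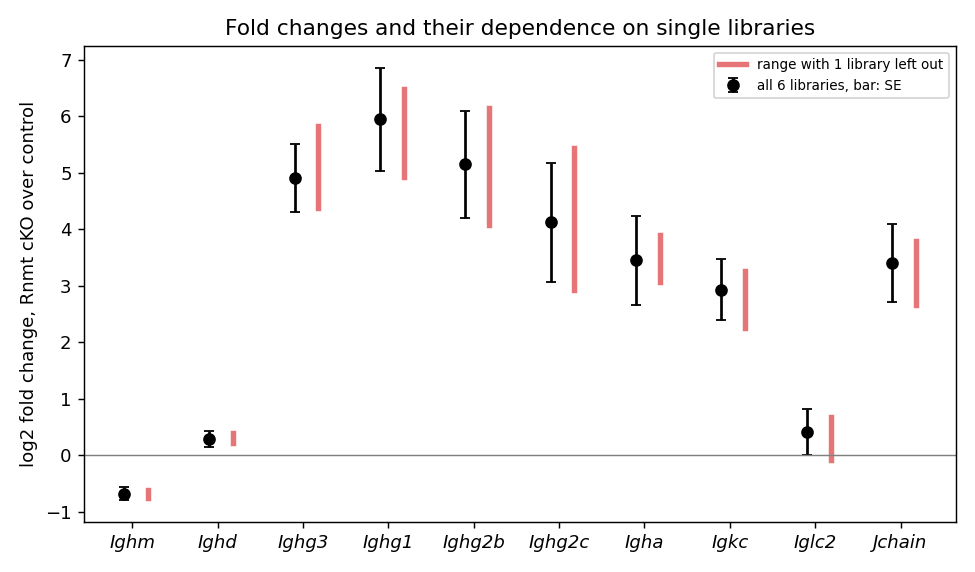
Log2 fold change of each member, Rnmt cKO over control, from the fit to all 6 libraries (points, with SE bars) and its range when 1 library is left out (red bars). Ighm keeps its direction, Iglc2 reaches from -0.10 to above 0, and the switched heavy chain genes, Igkc and Jchain stay above 2. For Ighg3, whose fitted value depends on the prior count, the range covers leaving out a control only.

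Levels of different members were compared per exon length, as RPKM. This length joins all annotated exons of a gene, 2592 bases for Ighg1 and 1326 for Ighg2c. Their lowest-numbered transcripts have 1076 and 1214 bases, so the order of members depends in part on the annotation. In controls, Ighm was at 169.1 ± 17.0 RPKM (SD, n = 3), followed by Igkc at 23.5 ± 2.05, Ighd at 6.95 ± 0.845 and Iglc2 at 2.59 ± 0.306 RPKM, and none of these neighbours overlapped. Below them Igha, Jchain, Ighg2c, Ighg1 and Ighg2b lay between 0.838 and 0.338 RPKM, each overlapping the next, and Ighg3 was lowest at 0.0444 RPKM. In Rnmt cKO the order changed, with Igkc at 178.7 ± 118.9 RPKM overlapping Ighm at 105.3 ± 9.02 RPKM. Ighg1 came next at 30.1 ± 26.2 RPKM, below every value of Ighm, and the remaining members, from Ighg2b at 12.3 to Ighg3 at 1.44 RPKM, each overlapped their neighbour.

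Added over the 10 members, expression was 382.8, 360.6 and 315.1 CPM in controls and 311.3, 703.0 and 420.3 CPM in Rnmt cKO. The sums overlapped, and Ighm was the largest single term in every library. Without Ighm, the other 9 members summed to 36.3, 33.9 and 31.5 CPM in controls and 130.6, 502.7 and 205.7 CPM in Rnmt cKO.

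The make-up of the heavy chain constant counts differed more between the groups than within controls. Ighm was 94.5%, 94.8% and 94.2% of these counts in controls, and 70.2%, 39.6% and 64.1% in Rnmt cKO. The exact binomial 95% interval was 68.3% to 72.0% in Rnmt cKO library 1 and 38.4% to 40.9% in library 2, so the Rnmt cKO libraries differed from each other by more than counting error. IgG and IgA genes together held 43, 56 and 45 counts in controls, and 597, 3417 and 1147 counts in Rnmt cKO. Within the IgG and IgA counts, Ighg1 led in each Rnmt cKO library, at 61.0%, 54.2% and 38.1%. Igha was 10.7% and 12.5% of them in libraries 1 and 2 and 29.6% in library 3, whose interval of 27.0% to 32.4% lay above both. Ighg3 was 3.18%, 0.790% and 6.36%, again highest in library 3. In controls Igha was 46.5%, 28.6% and 55.6% of the IgG and IgA counts, with intervals that overlap because the counts were few.

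**Figure D3:**
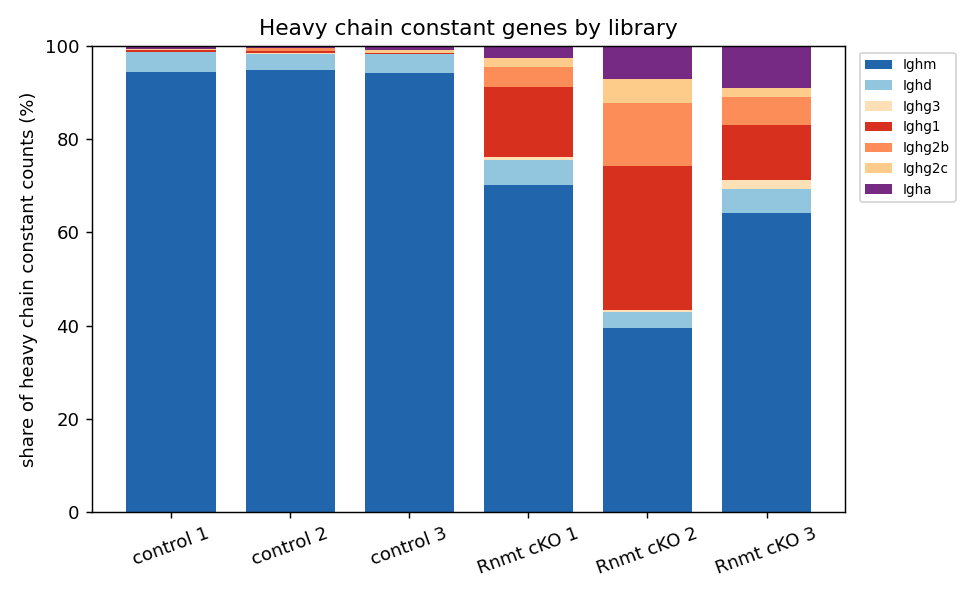
Share of each heavy chain constant gene in the heavy chain constant counts of each library, in percent. Ighm fills 94.2% to 94.8% of the controls and 39.6% to 70.2% of the Rnmt cKO libraries, where Ighg1 is the largest of the switched genes.

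Igkc and Jchain varied among the Rnmt cKO libraries in the same order as Ighg1 and Ighg2b, unlike Ighm. The ratio of Igkc to Ighm counts was 0.0370, 0.0409 and 0.0397 in controls and 0.260, 0.832 and 0.333 in Rnmt cKO. Per IgG and IgA count, Igkc stood at 0.745, 0.578 and 0.695 in Rnmt cKO, a 1.29-fold range, although Igkc itself varied 3.55-fold among them. In controls this ratio was higher, at 2.53, 2.39 and 2.27. Jchain per Igkc count was 0.147, 0.0746 and 0.127 in controls and 0.119, 0.164 and 0.173 in Rnmt cKO, and these overlapped. Iglc2 made up 10.7%, 11.8% and 11.3% of the Igkc and Iglc2 counts in controls and 2.41%, 1.94% and 2.45% in Rnmt cKO.

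V segment genes, which the choice of members did not use, were examined next, since a rearranged transcript carries 1 of them. Few of them held enough counts to be tested singly, with 168 of the 218 annotated V genes having any count and 2 passing the filter. Together they held 109, 105 and 125 counts in controls and 379, 1907 and 715 counts in Rnmt cKO. Their summed expression was 12.8, 10.5 and 13.8 CPM in controls and 40.1, 160.9 and 64.1 CPM in Rnmt cKO. The Rnmt cKO libraries were in the same order as for Igkc. The difference in log2 summed CPM was 2.60 ± 0.60 (SE), with p = 0.10 in an exact two-sided permutation test (n = 3 and 3), the smallest p that this design allows. Because a rearranged transcript holds both a V segment and a constant gene, this test is not independent of the members and adds no support. Without Rnmt cKO library 2 the difference was 2.04. Of the 2 V genes tested singly, Igkv1-117 held 1, 2 and 0 counts in controls and 10, 20 and 18 in Rnmt cKO. It passed the filter only through the Rnmt cKO libraries, and against 3 counts per library it was at least 4.44-fold higher there. Ighv1-26 had a log2 fold change of 1.49 ± 0.75 (SE) and an edgeR adjusted p of 0.0659.

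Relative to the constant genes, V genes behaved differently for the light and the heavy chains. Igkv counts per Igkc count were 0.450, 0.366 and 0.520 in controls and 0.369, 0.472 and 0.444 in Rnmt cKO, so the ratio overlapped between the groups while both terms were higher in Rnmt cKO. Ighv counts per heavy chain constant count were 0.0170, 0.0119 and 0.0253 in controls and 0.0784, 0.149 and 0.0897 in Rnmt cKO. All Rnmt cKO values lay above the controls. Per IgG and IgA count, Ighv counts were 0.320, 0.262 and 0.292 in Rnmt cKO, a narrow range, and 1.23, 0.732 and 1.53 in controls.

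**Figure D4:**
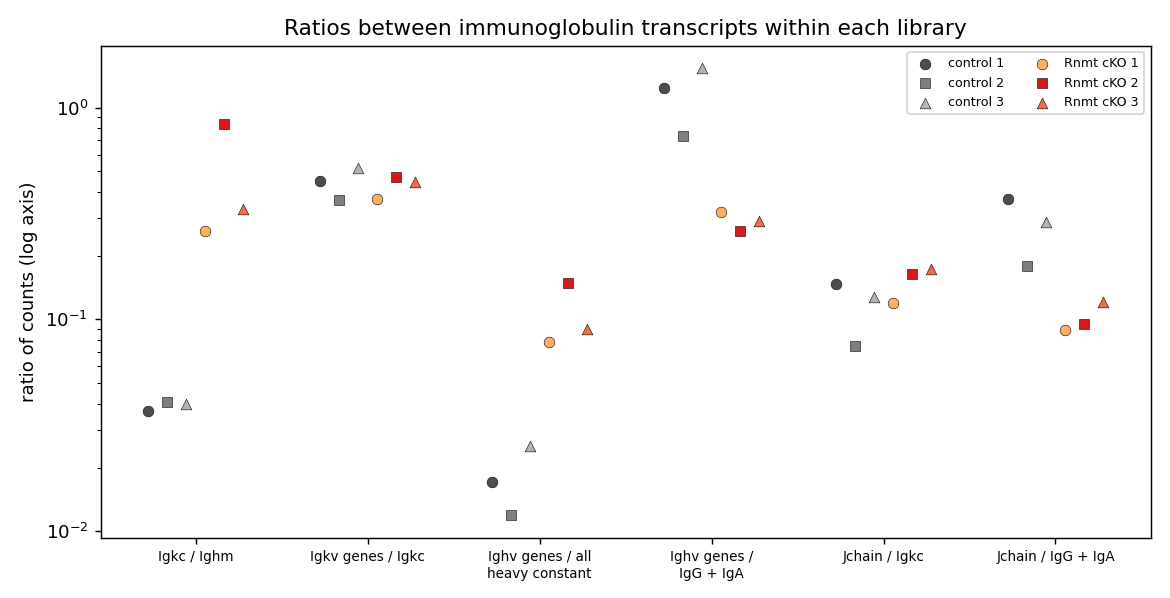
Ratios of counts between immunoglobulin transcripts within each library, on a log axis, with controls in grey and Rnmt cKO libraries in orange and red. The ratios of Igkv genes to Igkc and of Jchain to Igkc overlap between the groups, Igkc over Ighm and Ighv genes over all heavy chain constant counts are higher in every Rnmt cKO library, and both ratios to the IgG and IgA counts are lower there.

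The V genes with the most counts differed among the Rnmt cKO libraries. In Rnmt cKO library 2, Igkv14-111 took 378 of the 932 Igkv counts, or 40.6% (exact binomial 95% interval 37.4% to 43.8%), and Ighv6-3 took 196 of the 894 Ighv counts, or 21.9%. Ighv6-3 held 1 count in Rnmt cKO library 1 and 0 in library 3, whereas Igkv14-111 held 4 and 30 counts there. In Rnmt cKO library 3 the leading genes were Ighv5-16, with 54 of 335 Ighv counts, and Igkv12-41, with 46 of 354 Igkv counts, and in library 1 they were Ighv6-6, with 23 of 191, and Igkv9-120, with 15 of 164. Some leaders were shared with controls, on few counts. In control 1, Igkv14-111 tied with Igkv6-23 and Igkv6-25 at 4 of 49 Igkv counts each. In control 2, Igkv14-111 led with 7 of 49, against 6 for Igkv1-110. Ighv5-16 led the Ighv counts in control 3, with 12 of 69. Of the 48 V genes with at least 20 counts over all libraries, 8 drew at least 90% of them from a single library, 7 from Rnmt cKO library 2 and 1 from library 3. Library 2 also held the most V gene counts, 1907 against 715 in library 3 and 379 in library 1. Whether the 8 exceed what these totals give was not tested. The last 60 bases of the leading V genes, where the reference germline segment runs into its junction, show how the leading segments of the Rnmt cKO libraries differ (GENCODE vM21, transcript strand, not read from the libraries).
Igkv14-111: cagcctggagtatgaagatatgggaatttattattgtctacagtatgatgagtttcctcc
Igkv12-41: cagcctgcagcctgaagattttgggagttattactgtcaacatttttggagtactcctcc
Igkv9-120: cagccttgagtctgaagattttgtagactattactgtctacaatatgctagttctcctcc
Ighv6-3: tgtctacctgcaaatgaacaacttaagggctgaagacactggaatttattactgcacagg
Ighv5-16: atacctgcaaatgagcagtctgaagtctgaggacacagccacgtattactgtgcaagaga
Ighv6-6: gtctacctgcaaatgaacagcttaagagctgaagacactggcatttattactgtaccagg

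The spread between libraries split the members. Ighm and Ighd had coefficients of variation of 8.57% and 12.3% in Rnmt cKO, close to their 10.1% and 12.2% in controls, and the other 8 members had 52.5% to 97.8% in Rnmt cKO. In controls the coefficients of Igkc, Iglc2, Igha and Jchain were lower, at 8.75% to 30.7%, but those of the IgG genes were as wide, at 67.8% for Ighg1 to 106.5% for Ighg2c, on 20 counts or fewer in each control library. The biological coefficient of variation fitted by edgeR, which pools both groups, was 0.0928 for Ighm and 0.114 for Ighd, at the 36.6th and 55.5th percentile of tested genes. It was 0.255 for Iglc2 and 0.291 for Igkc, at the 95.8th and 98.0th percentile, and from 0.375 for Jchain to 0.554 for Ighg2c in the others, at the 99.7th percentile or above. Ighg1, Ighg2b and Igkc had this spread at more than 100 counts in each Rnmt cKO library.

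**Figure D5:**
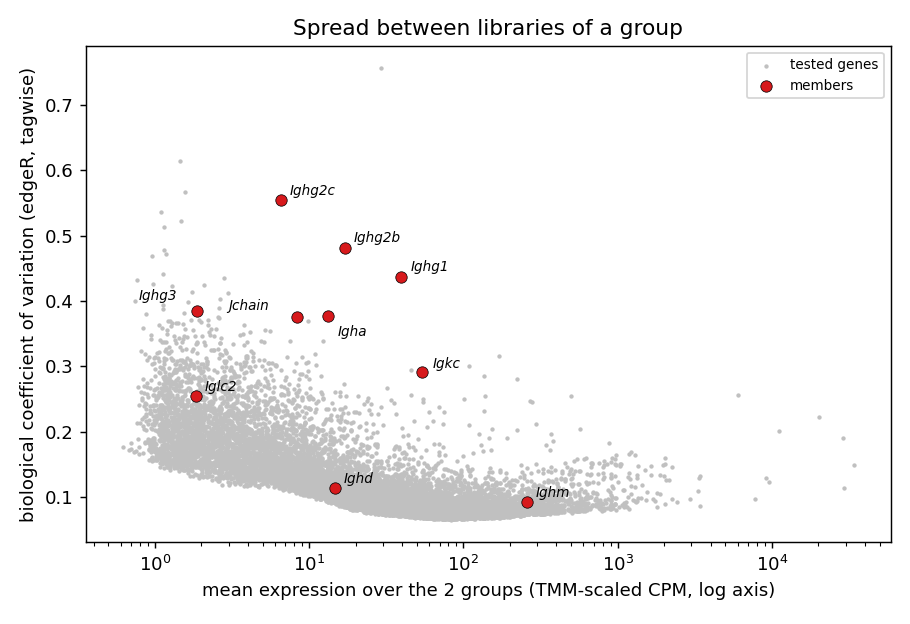
Biological coefficient of variation of each tested gene against its mean expression over both groups, in TMM-scaled CPM on a log axis, with the members in red and named. Ighm and Ighd lie in the bulk of genes of their expression, and Igkc, Igha, Jchain and the IgG genes Ighg1, Ighg2b and Ighg2c lie above nearly all genes of like expression.

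Patterns over the 6 libraries were also compared. Among the members, Igkc and Jchain were the closest pair, with a root mean square difference of 0.337 in centred log2 CPM, followed by Ighd and Iglc2 at 0.355 and Igha and Jchain at 0.362. Ighg1 was closest to Ighg2b, at 0.616, and Ighg2c to Jchain, at 0.807. These differences are not scaled to how much a gene varies, so genes that vary little can lie close without a shared pattern. Over the 6 libraries the SD of log2 CPM was 0.216 for Ighd, 0.463 for Iglc2 and 1.60 for Igkc. Among tested genes that are not members and had a mean of at least 5 CPM, the gene with the pattern closest to Iglc2 was Pou2af1, with a difference of 0.125, followed by Pax5 at 0.156. For Ighm the closest genes were Slc35d2, Snhg6 and Snhg12, at 0.051 to 0.069, and for Ighd they were Eif1a, Grsf1 and Pim2, at 0.038 to 0.061. Igkc had Hist1h3d, Cenpe and Top2a at 0.381 to 0.493, and Jchain and Igha both had Gadd45g, at 0.605 and 0.623. None of these non-members came closer than 1.00 to Ighg1, Ighg2b or Ighg2c, and Ighg3 had Hist1h3g at 0.440.

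Core B cell genes moved less than the switched constant genes and Igkc. Of 18 such genes, all tested, 7 were called higher, and the median log2 fold change was 0.63 against 0.01 over all tested genes. Among the called genes were Cr2, a complement receptor, Cd22, an inhibitory receptor of B cells, Ms4a1, Bank1, Ebf1 and Cd79b, with log2 fold changes between 0.61 and 0.89. The number called depended on the fit. With all 6 libraries it was 3 in the quasi-likelihood test, 5 in the DESeq2 Wald test and 12 without scaling beyond library size. Leaving out Rnmt cKO library 1 or 3 gave 7, leaving out control 1, 2 or 3 gave 1, 5 or 3, and leaving out Rnmt cKO library 2 gave 0, with 4 at an unadjusted p under 0.05 in the edgeR exact test. Their sum over the 18 genes was 185.5, 197.2 and 194.7 CPM in controls and 221.5, 292.7 and 231.8 CPM in Rnmt cKO, a log2 difference of 0.36 ± 0.13 (SE) with p = 0.10 in the exact two-sided permutation test (n = 3 and 3), again the smallest possible. Since these are bulk samples, more cells of a type and more RNA per cell cannot be told apart. Per core B cell count, IgG and IgA counts were 0.0273, 0.0283 and 0.0255 in controls and 0.285, 0.985 and 0.444 in Rnmt cKO. Ighm went the other way, at 77.6, 59.5 and 67.6 counts per count of Cd79a, a signal chain of the B cell receptor, in controls and 32.3, 23.0 and 32.8 in Rnmt cKO. Ighd per Cd79a count overlapped, at 3.37, 2.22 and 2.95 in controls and 2.45, 1.95 and 2.64 in Rnmt cKO.

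Plasma cell genes were mostly too low to test. Of 12, 6 were tested and 2 were called higher, Irf4 and Xbp1, with log2 fold changes of 0.45 and 0.31. With 1 library left out these were 0.39 to 0.53 and 0.22 to 0.36. Xbp1 was then past the threshold in none of the 6 fits, with unadjusted p of 0.00772 to 0.0690 in edgeR's exact test. Irf4 was not past it without control 2, at an edgeR adjusted p of 0.0641, or without Rnmt cKO library 2. In the latter fit the 1 plasma cell gene called was Ell2, which was lower. T cells express the transcription factors Irf4 and Xbp1 as well. The list summed to 129.0 to 145.6 CPM in controls and 155.6 to 167.9 CPM in Rnmt cKO. Prdm1, which drives plasma cell differentiation, had a log2 fold change of -0.58 ± 0.16 (SE) and an edgeR adjusted p of 0.0743. Mzb1, a chaperone needed for antibody secretion, held 7, 0 and 4 counts in controls and 7, 34 and 16 counts in Rnmt cKO, and Sdc1, the plasma cell surface marker, 3, 4 and 1 against 4, 11 and 2. The part of other cell types in the member values was not tested.

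Among the other lists of the pathway, 1 of 9 transcription factors that act on immunoglobulin genes was called lower, Pou2f2 at a log2 fold change of -0.72, and 3 were called higher, Ebf1, Irf4 and Xbp1. Ebf1 had a log2 fold change of 0.89, and of 0.63 without Rnmt cKO library 2. Of 10 receptors for immunoglobulin, 4 were tested and 1 was called lower, Fcgrt, the neonatal Fc receptor gene, at -1.31. Of 5 genes of recombination and class switching, 2 were tested, Dntt with a log2 fold change of -0.15 ± 0.13 (SE) and Ung with a log2 fold change of -0.00 ± 0.17 (SE), neither past the threshold. Of 4 MHC class II genes, 3 were called higher, with log2 fold changes of 0.62 to 0.79, and 2 without Rnmt cKO library 2. They summed to 103.1, 103.7 and 79.2 CPM in controls and 110.4, 186.6 and 155.2 CPM in Rnmt cKO. Of 6 myeloid genes, 3 were tested and 1 was called higher, Lyz2, at 1.60. The list summed to 5.19 to 7.07 CPM in controls and to 9.93, 22.1 and 9.95 CPM in Rnmt cKO, highest in library 2. The 3 neutrophil genes summed to 0.235 to 0.599 CPM in controls and 4.44 to 15.6 CPM in Rnmt cKO, with S100a8 and S100a9 called higher. Both fell below the filter when any Rnmt cKO library was left out. Of 3 erythroid genes, 2 were tested and called lower, and both fell below the filter when any control was left out. Cd8a and Cd8b1 were called lower, at -0.87 and -0.58, and had edgeR adjusted p of 0.0981 and 0.0505 without Rnmt cKO library 2. Cd8a also lost its call when any control or Rnmt cKO library 1 was left out, while Cd8b1 kept its call in these fits. The part of these lists in the member values was not tested either.

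Libraries also differed in the share of reads outside genes, so the members were compared within sets of libraries of like share. In the set with low shares (controls 1 and 2 and Rnmt cKO 3), the difference in mean log2 CPM (Rnmt cKO minus control, prior count 2) was -0.65 for Ighm, 2.43 for Igkc, 4.39 for Ighg1, 3.84 for Igha and 2.99 for Jchain. In the set with high shares (control 3 and Rnmt cKO 1 and 2), it was -0.58, 2.95, 7.19, 2.42 and 2.95 in the same order. The direction of each of the 8 members with separate groups was the same in both sets. That outcome was fixed in advance, because every Rnmt cKO value of these members lies on 1 side of every control value. It is therefore no check on the share of reads outside genes. Each set holds a single library of 1 group and so allows no test.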

How the data were processed

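RNA-Seq libraries were prepared with a TruSeq kit after ribosomal RNA depletion. According to the methods and the submitters' processing notes, the authors took mm10 as the genome and GENCODE vM12 basic as the annotation, aligned reads with STAR 2.5.2b, and deposited unnormalised counts of uniquely mapped fragments per gene. The sense column was used, because it is proportional, within each library, to the signal that the authors deposited for it. Their fold changes and p-values were not used. Reads of genes that share sequence are lost where they map more than once, so members with close copies can be undercounted.

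The 12336 genes above 1 CPM in at least 3 libraries were tested with edgeR 4.0.16 (R 4.3.3): TMM scaling, tagwise dispersion, exact test, Benjamini-Hochberg adjustment over all tested genes and a threshold of 0.05. Log2 fold changes set Rnmt cKO over control, and SEs come from log2 CPM with a prior count of 2. RPKM is TMM-scaled CPM per kilobase of exons (GENCODE vM21, to which 46488 of 46983 genes matched). Shares have exact binomial 95% intervals (scipy 1.17.1), which cover counting error only, and floors are 3 counts per library. Summed levels were compared with exact permutation tests.

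The named genes are the members, the 3 tested genes nearest each member with a mean of at least 5 CPM, the leading V gene of each library, and list genes past the threshold or most abundant. Other genes were chosen after their values were seen. Some genes of the lists are not reported here. Members, lists and tests were chosen with earlier results of these data known. On simulated data with 200 changed genes among 12171, the exact test recovered 86.5% and made 33 false calls. It recovered 77% of the 2-fold and 96% of the 4-fold changes, and the quasi-likelihood test made 13 false calls. The simulated counts were drawn independently, with no library set apart as Rnmt cKO library 2 is among the members. Libraries of a group differed beyond sampling noise (chi-square per degree of freedom 3.64 to 22.9) and were each counted as 1 sample. The labels do not say which libraries came from separate animals, so p-values measure the spread between these samples. Alternatives were DESeq2 1.42.0, the quasi-likelihood test with and without a replicate block, other scalings, filters and strands, and leaving out each library.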

Additional observations from a re-analysis of the deposited data

How the results depend on the processing

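Over the 15 alternatives, the number of members called lower stayed at 1. The number called higher was 7 under the other scalings and tests, with reads of either strand, without a filter and when a control was left out. It was 6 when an Rnmt cKO library was left out, since Ighg3 then fell below the filter. It was 2 when every library had to exceed 1 CPM and 3 when at least 3 libraries had to exceed 10 CPM, where in both cases 5 members were left to test. The log2 fold change of Iglc2 was reversed without Rnmt cKO replicate 2, at -0.10, and that of each other member kept its direction and its side of the threshold wherever it could be fitted. Without scaling beyond library size the median log2 fold change of all tested genes moved from 0.01 to 0.14. Leaving out 1 library in turn gave 0.05 to 0.67 for the log2 ratio of the member sums, 2.04 to 3.05 for V genes and 0.24 to 0.44 for core B cell genes. Core B cell genes called higher numbered 7 in the exact test and 0 to 12 over the alternatives, with 0 under the replicate block and without Rnmt cKO replicate 2. With 2 libraries against 3 the smallest p is 0.20.

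The labels number the replicates alike in both groups, but same-numbered libraries did not deviate together (r = -0.213, -0.0164 and -0.345). Deviations from a group mean sum to 0, so these correlations depend on each other and cannot exclude a pairing. With the replicate block in the quasi-likelihood test, all 8 member calls were kept, 7 higher and 1 lower, with a log2 fold change of -0.68 for Ighm, while the calls over all tested genes went from 636 lower and 793 higher without the block to 276 and 431, against 844 and 987 in the exact test, and the core B cell genes called higher went from 3 to 0, with 10 at an unadjusted p under 0.05 in the edgeR quasi-likelihood test. Leaving out 1 library gave 547 to 1285 lower and 643 to 1221 higher over all tested genes. Members with few counts, Ighg3 and Iglc2 above all, are limited by depth.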
